A study of Arabidopsis thaliana with 15 samples.

Results

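The chloroplast genome of Arabidopsis thaliana keeps genes for part of its own gene expression machinery. They comprise the rps and rpl genes for proteins of the small and large plastid ribosomal subunits, rpoA, rpoB, rpoC1 and rpoC2 for the core of the plastid-encoded RNA polymerase, and matK for a maturase that acts in group II intron splicing. Here 31 gene identifiers of these classes were followed, out of 37361 genes in the deposited counts. They were chosen by their annotation, with earlier results of these data known. They are 15 small-subunit identifiers, 11 large-subunit identifiers, 4 polymerase genes and matK. The same counts hold 57 other plastid protein-coding identifiers, which served as the comparison set.

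Plastid genes are read as long multigene units by the plastid-encoded polymerase, which resembles the bacterial enzyme, and by phage-type polymerases made from nuclear genes. Plastid messages are made without the m7G cap that nuclear messages carry. Their 3′ ends lack the long, stabilising poly(A) tail of nuclear messages, and short added tails are known chiefly as marks of decay. The remaining plastid ribosomal proteins, and the sigma factors that direct the plastid-encoded polymerase, are encoded in the nucleus and imported.

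NAD-seq tags RNA whose 5′ end carries NAD+ and captures it on streptavidin. SPAAC couples the biotin by a copper-free click reaction and CuAAC by a copper-catalysed one, and the study set these chemistries side by side as ways to profile NAD+-capped transcripts. All 15 libraries came from whole seedlings of the Col-0 ecotype aged 12 days, grown at 22 °C under 16 h of light and 8 h of dark, and from RNA first bound to oligo(dT) beads. For each preparation 10 µg of this RNA went through an incubation with an antibody against m7G (m7G-depleted) or through the same step without the antibody (mock). About 3 µg then entered each click reaction with E. coli tRNA as carrier, and about 150 ng of the mock-treated RNA entered ordinary mRNA-seq. This gave 5 groups of 3 libraries: mock mRNA-seq, mock SPAAC, mock CuAAC, m7G-depleted SPAAC and m7G-depleted CuAAC. A capture made without the tagging enzyme and mRNA-seq of m7G-depleted RNA were not analysed here, so RNA bound without a tag is part of every NAD-seq value. The labels do not say that replicates came from separate plants, so the p-values reflect the scatter of these samples alone, and that scatter may be technical.

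Library totals ran from 3806556 to 19798778 counts, and the counts on the 31 genes from 1389 to 25975 per library. All plastid identifiers together took 6.74% to 8.52% of the counts in mock mRNA-seq, 0.168% to 0.177% in mock SPAAC and 0.294% to 0.386% in mock CuAAC. After depletion of m7G-capped RNA they took 0.519% to 0.871% in SPAAC and 1.46% to 2.11% in CuAAC. All 4 leaf markers (RBCS1A at 11462 CPM) and all 4 root markers (PYK10 at 1222 CPM, CASP1 at 18.7 CPM) were detected in mock mRNA-seq of these whole seedlings. Reads were not assigned by strand, since the same count was listed in 15 of 15 libraries for AT2G08665 and for AT2G34420, which overlaps it on the opposite strand.

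Since the input was selected on oligo(dT), the longest run of A inside each coding sequence is shown for the genes at the ends of the range and for those that lead the results. Each line gives the run in capitals with up to 20 bases on either side, 5′ to 3′ on the coding strand, from RefSeq TAIR10.1.
rpoA (ATCG00740, polymerase, Pltd:78075-78128, minus strand): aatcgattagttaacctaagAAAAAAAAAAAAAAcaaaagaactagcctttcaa
rpoC2 (ATCG00170, polymerase, Pltd:17906-17958, minus strand): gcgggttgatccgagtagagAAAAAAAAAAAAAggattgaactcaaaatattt
rps14 (ATCG00330, small subunit, Pltd:37164-37211, minus strand): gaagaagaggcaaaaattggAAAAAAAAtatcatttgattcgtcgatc
rpl32 (ATCG01020, large subunit, Pltd:113449-113486, plus strand): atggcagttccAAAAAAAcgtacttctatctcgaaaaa
rps18 (ATCG00650, small subunit, Pltd:68193-68222, plus strand): actactagtcttagaaccagAAAAAAAtag
rpl33 (ATCG00640, large subunit, Pltd:67574-67617, plus strand): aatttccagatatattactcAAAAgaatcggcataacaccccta
rps12 5′ exon (small subunit, Pltd:69690-69724, minus strand): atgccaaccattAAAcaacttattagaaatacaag

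The runs are 14 bases in rpoA, 13 in rpoC2, 8 in rps14, 7 in rpl32 and rps18, 4 in rpl33 and 3 in the 5′ exon of rps12. Across the 17 genes measured in every group, run length and the level per kb in mock mRNA-seq had a Spearman rho of -0.429, and run length and the log2 fold change of mock SPAAC against mock mRNA-seq had a rho of 0.0117. Gene length and level per kb had a rho of -0.855. These are descriptions over genes that share libraries and, in several cases, a transcript.

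Of the 31 identifiers, 26 passed the low-count filter and 5 did not. The limit was 0.732 CPM, taken relative to library totals without TMM scaling. Elsewhere CPM is the count relative to library size, scaled by TMM. All 3 mRNA-seq libraries were over the limit for 25 identifiers. Mock SPAAC and mock CuAAC reached it in all 3 libraries for 18 identifiers each, and after m7G depletion SPAAC did for 24 and CuAAC for 23. Since a gene that passes only through mRNA-seq had to differ, the counts of calls below rest on the 17 genes over the limit in every group: the 4 polymerase genes, matK, 6 small-subunit and 6 large-subunit genes. The largest block left out lies in the inverted repeat of the plastid genome, 26264 bases present at Pltd:84171-110434 and again at Pltd:128215-154478. It holds 8 of the identifiers, as pairs for rpl2, rpl23, rps7 and the 3′ exons of rps12, and the members of each pair differ at 0 bases.

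Counts on 7 of these 8 identifiers were between 0 and 18 in every library, rpl2.2 reaching 18, and the sources used here do not say how reads matching both copies were counted. For rps7.2 the libraries of mock mRNA-seq held 5, 7 and 6 counts, and for rpl2.2 18, 7 and 11. In m7G-depleted SPAAC rps7.2 had 2, 2 and 3 counts, and in m7G-depleted CuAAC 1, 4 and 7. No fold is given for identifiers at this level.

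In mock mRNA-seq the messages spanned a wide range of levels per length, with rps14 and rpl32 far above all others. rps14, for a protein of the small subunit, had 5755 ± 685 CPM per kb (SD, n = 3), and rpl32, for a protein of the large subunit, had 4822 ± 737 CPM per kb. By library rps14 had 5819, 6405 and 5040 CPM per kb and rpl32 5008, 5448 and 4010 CPM per kb. Their ranges overlapped, but rps14 was above rpl32 in each of the 3 libraries. In bulk seedlings such a level cannot show whether fewer cells of a type or less RNA per cell lies behind it, and these cannot be told apart. Next came rpl33 at 473 ± 45.7 CPM per kb and the 5′ exon of rps12 at 401 ± 25.4 CPM per kb.

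The polymerase genes were lower per length and differed among themselves. rpoA had 122 ± 12.8 CPM per kb, rpoC1 84.6 ± 11.1, rpoB 37.6 ± 7.85 and rpoC2 29.3 ± 5.08. rpoA, which codes for the alpha subunit, and rpoC1 were each above rpoB and rpoC2 by more than the spread, while rpoB and rpoC2 differed by about 1 SD. rpoB, rpoC1 and rpoC2 lie in this order on 1 strand, with 26 bases between rpoB and rpoC1 and 182 between rpoC1 and rpoC2. rpoA lies elsewhere in the plastid genome. matK, which sits in the intron of a lysine tRNA gene, had 172 ± 27.2 CPM per kb.

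**Figure D1:**
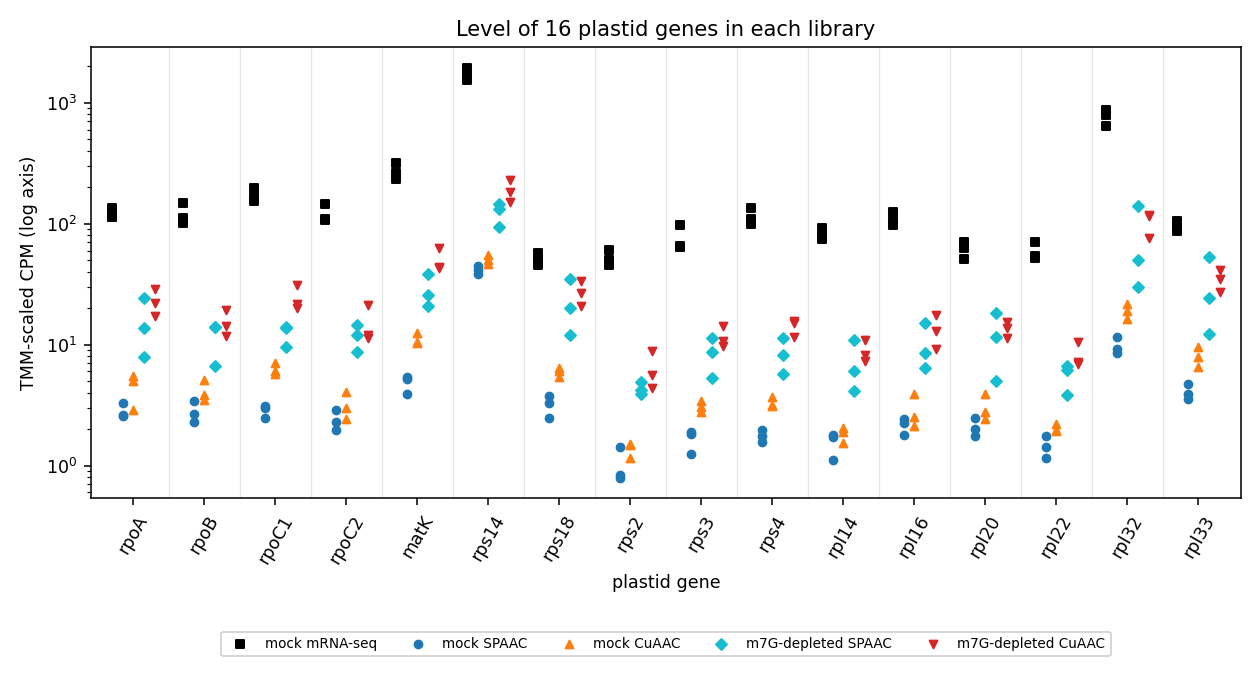
TMM-scaled CPM on a log axis for 16 of the 17 genes over the low-count limit in every group, with 1 point per library and colours for the 5 groups. In every gene the mock mRNA-seq libraries are the highest and the mock NAD-seq libraries the lowest, and rps14 and rpl32 have the highest group means, although rpl32 is as low as 29.7 CPM in replicate 3 of m7G-depleted SPAAC.

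The capture of mock-treated RNA was compared with mRNA-seq of the same treatment to see which messages the NAD-seq reactions take up. Every one of the 17 genes was lower in mock SPAAC than in mock mRNA-seq and every one was lower in mock CuAAC, except relative to other plastid coding genes, where none of them stayed called lower. The call needs an adjusted p (edgeR's quasi-likelihood F test, Benjamini-Hochberg) under 0.05 and a fold of at least 2. The share of all genes called lower was 5.17% for mock SPAAC and 11.2% for mock CuAAC. The other plastid coding genes were lower too, 55 of 55 tested in each comparison, so the fall was common to plastid messages. Over the 17 genes the median log2 fold change was -5.65 in mock SPAAC and -4.84 in mock CuAAC, beside -5.80 and -5.01 for the other plastid coding genes and 0.07 and 0.01 for all genes. Both comparisons use the same mock mRNA-seq libraries.

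Among the polymerase genes, rpoB (ATCG00190, the beta subunit) had 112, 149.5 and 101 CPM in mock mRNA-seq, 2.7, 2.29 and 3.43 CPM in mock SPAAC and 3.48, 5.12 and 3.85 CPM in mock CuAAC. All mRNA-seq libraries were far above all captured ones, and the ranges of SPAAC and CuAAC did not overlap, the CuAAC libraries lying slightly above. The log2 fold change was -5.42 ± 0.31 (SE) in mock SPAAC, with an adjusted p of 3.27e-08 by edgeR, and -4.84 ± 0.31 in mock CuAAC, with an adjusted p of 4.25e-08.

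rpoC1 (ATCG00180), for a part of the beta′ function, had 165, 198 and 155 CPM in mock mRNA-seq, 3.11, 2.48 and 3.02 CPM in mock SPAAC and 5.74, 7.11 and 6.09 CPM in mock CuAAC. The groups did not overlap, and SPAAC was the lowest. Its log2 fold change of -5.91 ± 0.19 in mock SPAAC was the lowest of the polymerase genes. In mock CuAAC it was -4.76 ± 0.18.

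rpoC2, which codes for the other beta′ part, had 108, 145 and 109.9 CPM in mock mRNA-seq, 1.95, 2.89 and 2.29 CPM in mock SPAAC and 2.97, 4.10 and 2.42 CPM in mock CuAAC. The ranges of SPAAC and CuAAC overlapped for this gene, with SPAAC lower in 3 of 3 same-number pairs of libraries. rpoA had 113, 135 and 113 CPM in mock mRNA-seq, 3.30, 2.61 and 2.55 in mock SPAAC and 5.03, 5.48 and 2.87 in mock CuAAC, again with overlapping captured groups and SPAAC lower in 3 of 3 pairs. The log2 fold changes of rpoC2 were -5.66 ± 0.28 in mock SPAAC and -5.22 ± 0.28 in mock CuAAC, and those of rpoA were -5.40 ± 0.40 and -4.71 ± 0.39.

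matK (ATCG00040) had 263, 319.9 and 236 CPM in mock mRNA-seq, 5.16, 3.94 and 5.41 CPM in mock SPAAC and 10.4, 12.5 and 10.4 CPM in mock CuAAC. Its groups were fully apart, with SPAAC lowest. The log2 fold change was -5.81 ± 0.26 in mock SPAAC and -4.61 ± 0.25 in mock CuAAC (adjusted p of 2.89e-09 and 8.22e-09 by edgeR).

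Of the small-subunit genes, rps14 had 1763, 1941 and 1527 CPM in mock mRNA-seq. It had 38.6, 41.6 and 44.5 CPM in mock SPAAC and 50.0, 54.7 and 46.6 CPM in mock CuAAC. It was the most abundant of the 31 in each mock group, and its captured groups did not overlap. Its log2 fold change of -5.39 ± 0.19 in mock SPAAC lay above the median of the other plastid coding genes, -5.80. In mock CuAAC it was -5.11 ± 0.19, near their median of -5.01. Relative to other plastid coding genes, rps14 was at 0.83 ± 0.22 in mock SPAAC, beside a median of 0.37 for those genes. There it passed the adjusted p (0.000164 by edgeR) and missed the fold. In mock CuAAC it was at -0.05 ± 0.22 on that scale.

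rps4 (ATCG00380), whose product binds early in assembly of the small subunit in bacteria, had 109, 135 and 99.3 CPM in mock mRNA-seq, 1.58, 1.74 and 1.98 CPM in mock SPAAC and 3.16, 3.13 and 3.67 CPM in mock CuAAC. Its groups were apart, and its log2 fold change of -6.00 ± 0.21 in mock SPAAC was the lowest of the small-subunit genes. rps3 had 64.7, 98.2 and 65.4 CPM in mock mRNA-seq against 1.25, 1.88 and 1.82 CPM in mock SPAAC and 3.03, 3.43 and 2.78 CPM in mock CuAAC. Its log2 fold changes were -5.50 ± 0.28 and -4.59 ± 0.27. The start of rps3 overlaps the end of its neighbour rpl22 by 16 bases.

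The 5′ exon of rps12 (ATCG00065), which is joined to its 3′ exons by trans-splicing, had 42.8, 48.6 and 45.7 CPM in mock mRNA-seq, 0.604, 1.24 and 0.624 CPM in mock SPAAC and 1.16, 1.45 and 0.807 CPM in mock CuAAC. rps19 had 30.1, 42.7 and 28.7 CPM in mock mRNA-seq and, at -5.68 ± 0.30, the lowest log2 fold change of the tested small-subunit genes in mock CuAAC. It held only 10, 13 and 5 counts there, not all over the low-count limit. Among the 6 small-subunit genes over the limit in every group the lowest was -5.32. For rps12 and rps19 alike, every mRNA-seq library was far above the captures, and the ranges of SPAAC and CuAAC overlapped. SPAAC was the lower in 3 of 3 pairs for rps12 and in 1 of 3 for rps19.

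The gene at the other end of the small-subunit range was rps18. It had 50.0, 56.9 and 45.7 CPM in mock mRNA-seq, 2.46, 3.30 and 3.75 CPM in mock SPAAC and 6.00, 6.39 and 5.38 CPM in mock CuAAC. The mRNA-seq libraries were still above all captured ones, but by less than for any other of the 17 genes. The log2 fold change was -4.00 ± 0.36 in mock SPAAC (adjusted p of 4.40e-06 by edgeR) and -3.09 ± 0.35 in mock CuAAC (adjusted p of 1.65e-05).

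Of the large-subunit genes, rpl32 had 796, 866 and 638 CPM in mock mRNA-seq, 11.5, 8.53 and 9.16 CPM in mock SPAAC and 19.0, 21.9 and 16.4 CPM in mock CuAAC. Its groups were apart. The log2 fold change was -6.30 ± 0.57 in mock SPAAC, the lowest of the 26 tested identifiers, and -5.32 ± 0.54 in mock CuAAC.

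rpl33, the neighbour of rps18, stood at the other end of the large-subunit genes with 94.1, 105 and 86.5 CPM in mock mRNA-seq, 3.58, 3.90 and 4.68 CPM in mock SPAAC and 9.54, 7.95 and 6.54 CPM in mock CuAAC. Its groups were also apart, with the smallest fall among the large-subunit genes. The log2 fold changes were -4.55 ± 0.48 and -3.55 ± 0.46 (adjusted p of 2.77e-05 and 7.44e-05 by edgeR).

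Further genes measured in every group lay between these. rps2, beside rpoC2, had 50.2, 60.7 and 45.7 CPM in mock mRNA-seq, 0.790, 1.42 and 0.833 CPM in mock SPAAC and 1.48, 1.51 and 1.17 CPM in mock CuAAC. Its captured groups overlapped, with SPAAC lower in 3 of 3 pairs, and its log2 fold change was -5.65 ± 0.24 in mock SPAAC.

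rpl14, rpl16 and rpl22, which lie with rps3 in a long cluster on the minus strand, fell alike. rpl16 had 106, 125 and 96.7 CPM in mock mRNA-seq, 2.42, 1.79 and 2.24 in mock SPAAC and 2.13, 3.92 and 2.51 in mock CuAAC. rpl14 had a log2 fold change of -5.73 ± 0.31 in mock SPAAC, rpl16 -5.66 ± 0.34 and rpl22 -5.33 ± 0.22. In mock CuAAC these were -5.48 ± 0.31, -5.23 ± 0.34 and -4.84 ± 0.22.

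Identifiers such as rps15, rps16 and rpl36 were over the limit in mRNA-seq but not in every captured group. rps15 had 0.279, 0.458 and 0.208 CPM in mock SPAAC against 19.7, 14.2 and 15.6 CPM in mock mRNA-seq. rps16 had 0.279, 0.367 and 0.781 CPM in mock SPAAC against 19.1, 14.6 and 15.9 CPM. No captured library of either came near the mRNA-seq range.

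**Figure D2:**
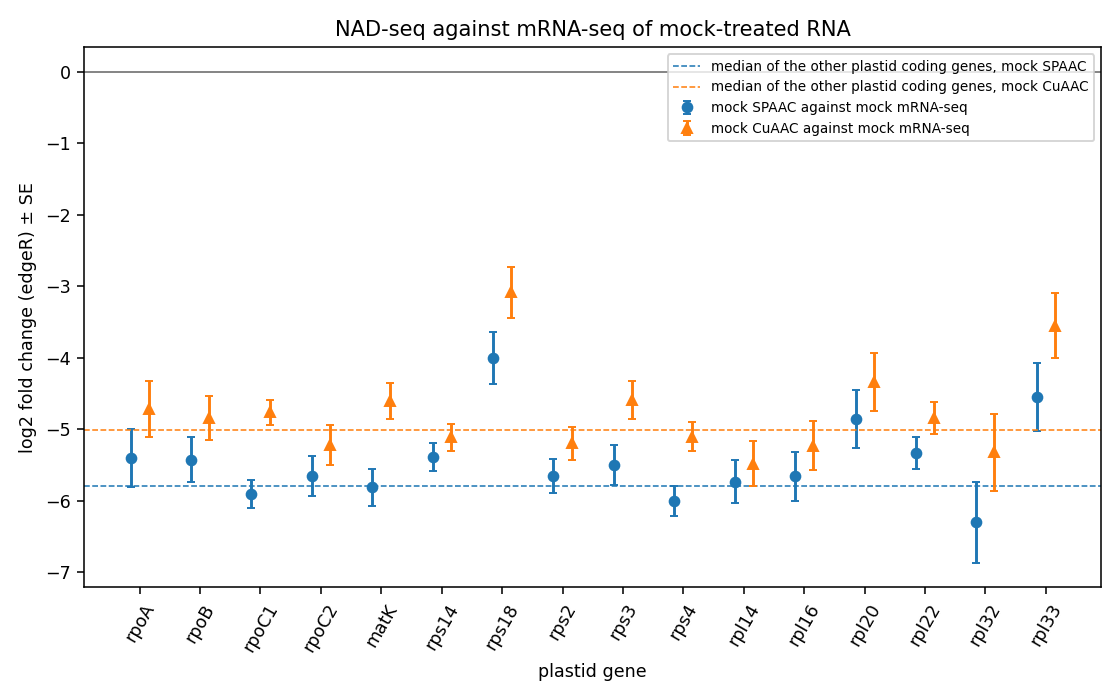
Log2 fold change ± SE (edgeR) of mock SPAAC and of mock CuAAC against mock mRNA-seq for 16 of the 17 genes, with dashed lines at the median of the other plastid coding genes. On this TMM scale all values are below 0 (relative to other plastid coding genes none stays called lower), and the 3 highest values in each chemistry are those of rps18, rpl33 and rpl20.

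Because all plastid messages were lower in the captures, the 31 genes were also set against the counts of the other plastid coding genes in the same library. This takes out the shift in the sum of those counts, but a shift in the median of those genes can remain. On this scale rps18 and rpl33 were a larger part of plastid RNA in every captured library than in any mRNA-seq library. Both were named for the highest log2 fold change of their subunit in the mock captures against mRNA-seq. Their separation and folds below therefore partly follow from that choice. Per 100000 counts on other plastid coding genes, rps18 had 47.4, 55.2 and 48.3 in mock mRNA-seq, 186, 237 and 275 in mock SPAAC and 189.5, 188 and 208 in mock CuAAC. On m7G depletion it had 532, 355 and 298 in SPAAC and 186, 181 and 165 in CuAAC. No captured library overlapped mRNA-seq.

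rpl33 had 89.2, 102 and 91.4 in mock mRNA-seq, 270.4, 280.3 and 344 in mock SPAAC and 302, 234.1 and 253 in mock CuAAC per 100000 of those counts. After m7G depletion it had 809, 424 and 302 in SPAAC and 243, 224 and 218 in CuAAC, again with no overlap with mRNA-seq. The third gene of the cluster, rpl20, chosen after its values were seen, had 59.4, 67.9 and 53.6 in mock mRNA-seq, 151, 178 and 130.0 in mock SPAAC and 77.4, 81.6 and 153 in mock CuAAC. Its captured libraries were also all above mRNA-seq.

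With each library scaled to the other plastid coding genes, rps18 was higher in mock SPAAC than in mock mRNA-seq by 2.21 ± 0.28 and in mock CuAAC by 1.95 ± 0.27 in log2 fold change. For rpl33 the values were 1.66 ± 0.26 and 1.48 ± 0.25, and for rpl20 1.35 ± 0.30 and 0.74 ± 0.30. Adjusted p values on this scale are close to unadjusted ones, since 99.4% and 98.8% of all genes were then called higher. Of the 26 tested identifiers 8 were called higher in mock SPAAC, beside 16.4% of the other plastid coding genes, and in mock CuAAC 2, beside 3.64%. Those 2 were rps18 and rpl33. None was called lower, beside 1.82% and 7.27% of the other plastid coding genes. The median of the other plastid coding genes on this scale was 0.37 in mock SPAAC and 0.04 in mock CuAAC.

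rpl33 and rps18 lie on the plus strand with 228 bases between their coding sequences, and rpl20 lies on the minus strand with its end 289 bases from the end of rps18. Since strands were not separated, transcripts that run past the end of rps18 or of rpl20 into the facing gene would be counted there. Their part in the result was not tested.

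**Figure D3:**
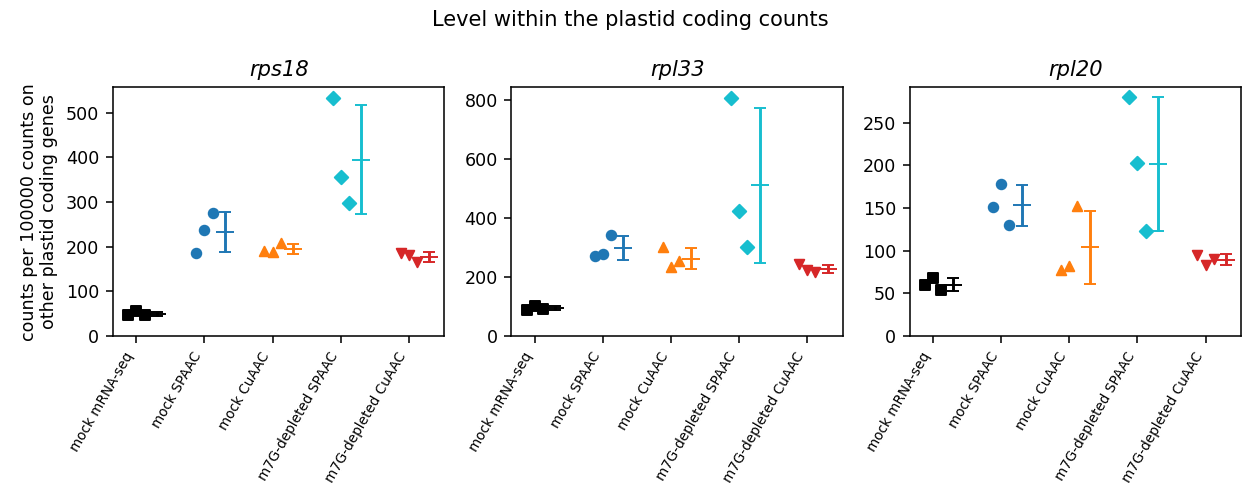
Counts on rps18, rpl33 and rpl20 per 100000 counts on the other plastid coding genes, with 1 point per library and mean ± SD beside each group of 3. The mRNA-seq libraries are lowest in each panel, and 1 library of m7G-depleted SPAAC is the highest, at 532 for rps18 and 809 for rpl33.

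The share of plastid coding counts that fell on the 31 genes together is a ratio within each library. It was 3.89%, 4.54% and 3.83% in mock mRNA-seq, 6.32%, 6.14% and 6.79% in mock SPAAC, and 4.14%, 4.28% and 4.60% in mock CuAAC. In m7G-depleted SPAAC it was 8.46%, 6.46% and 5.91%, and in m7G-depleted CuAAC 3.90%, 3.75% and 3.62%. Both SPAAC groups lay above all other libraries, and mock CuAAC overlapped mRNA-seq. Single genes weighed heavily in this share. Per 100000 counts on other plastid coding genes, rps14 had 3060 ± 184 in mock SPAAC and 1664 ± 123 in mock CuAAC (SD, n = 3). In m7G-depleted SPAAC rpl32 had 2171 in replicate 1, against 883 and 734 in the others. Scaled to other plastid coding genes, 1 of the 17 genes was below 0 in mock SPAAC against mock CuAAC. The median of those other genes themselves was 0.42 on that scale. The difference of mock SPAAC from mock CuAAC was 2.07 percentage points, and that of m7G-depleted SPAAC from m7G-depleted CuAAC 3.19 points. Each gave p = 0.1 by a two-sided exact permutation test, which is the smallest that 3 against 3 libraries allow, and an adjusted p of 0.32 over 16 such tests. For m7G-depleted SPAAC against mock SPAAC the groups overlapped (exact permutation p = 0.8), and the difference of 0.53 points became -0.23 without replicate 1 of the m7G-depleted group. For m7G-depleted CuAAC the difference from mock CuAAC was -0.587 points, with no overlap (exact permutation p = 0.1, adjusted 0.32).

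**Figure D4:**
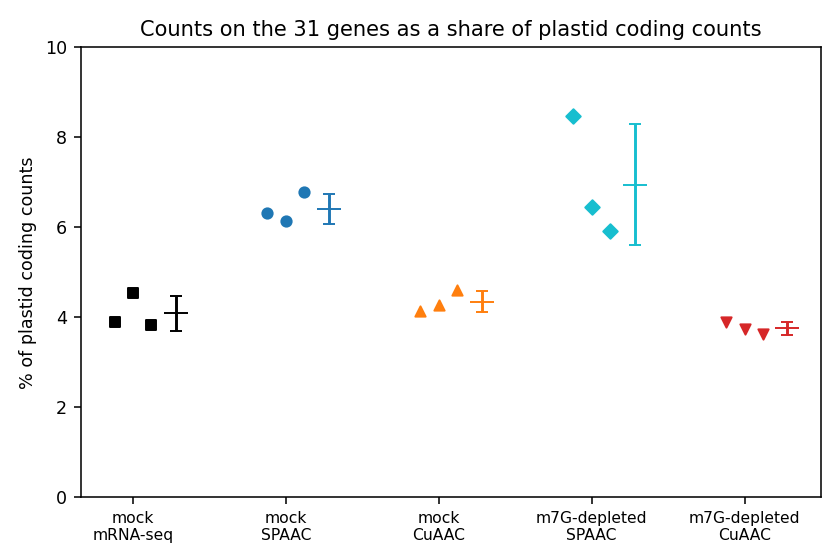
Percentage of plastid coding counts on the 31 genes in each library, with mean ± SD beside each group of 3. The SPAAC libraries lie between 5.91% and 8.46% and the other libraries between 3.62% and 4.60%.

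The polymerase genes took 12.4% ± 0.632 of the counts on the 31 genes in mock mRNA-seq, 11.7% ± 0.613 in mock SPAAC and 13.1% ± 1.13 in mock CuAAC (SD, n = 3). After depletion the values were 12.6% ± 1.82 for SPAAC and 12.9% ± 0.864 for CuAAC. All groups overlapped, and the smallest exact permutation p over the 8 comparisons was 0.2. Within same-number pairs the share was lower in mock SPAAC than in mock CuAAC in 3 of 3, with a paired exact permutation p of 0.25, the smallest that 3 pairs allow.

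The chemistries were compared directly on mock-treated RNA. matK and rpoC1 were lower in mock SPAAC than in mock CuAAC, where the share of all genes called lower was 0.508%. matK was at 5.16, 3.94 and 5.41 CPM in SPAAC against 10.4, 12.5 and 10.4 CPM in CuAAC, a log2 fold change of -1.21 ± 0.26 (adjusted p of 0.00265 by edgeR). For rpoC1 it was -1.14 ± 0.20 (adjusted p of 0.000225). rps4 and rps3 passed the adjusted p but not the fold, at -0.90 ± 0.25 and -0.91 ± 0.33. None of the 26 tested identifiers was called higher, with 0 at an unadjusted p under 0.05 by edgeR and 0 by DESeq2, where 6.47% of all genes were called higher. Without replicate 2 of mock SPAAC 1 was. The other plastid coding genes leaned the same way, with 15 of 55 called lower and a median of -0.75, beside -0.58 for the 17 genes.

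The direction between chemistries depended on the scaling. Against other plastid coding genes, rpoC1 moved to 0.02 and the lowest value of any tested identifier was -0.04. The median was 0.65 over the 26 tested identifiers and 0.42 over the other plastid coding genes themselves. In mock SPAAC 4 identifiers were called higher (rpl36, rps19 and rpl2.1 among them), beside 9.09% of the other plastid coding genes. Of these, rps19, for a protein of the head of the small subunit, had 1.25, 0.642 and 1.41 CPM in mock SPAAC and 0.645, 0.783 and 0.448 CPM in mock CuAAC. Its groups overlapped, and on the TMM scale it was 0.75 ± 0.38 and not called. The coding sequence of rps19 (Pltd:84005-84283, minus strand) crosses the edge of the inverted repeat, 53 bases from the rpl2 copy beside it. Across the 17 genes, GC content and the log2 fold change of mock SPAAC against mock CuAAC had a Spearman rho of 0.647, while for the same chemistries after depletion it was 0.0245.

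Removal of m7G-capped RNA before the capture was compared with the mock step in each chemistry. The messages of ribosomal proteins, polymerase and maturase took a larger part of the capture in both. All 17 genes were higher in m7G-depleted SPAAC than in mock SPAAC, and all 17 were higher in m7G-depleted CuAAC than in mock CuAAC. Relative to other plastid coding genes, however, 2 of the 17 had values below 0 in SPAAC and 14 of the 17 in CuAAC. None was called on that scale, and the medians of those other genes themselves were 0.13 in SPAAC and -0.13 in CuAAC. On the TMM scale the share of all genes called higher was 7.37% in SPAAC and 6.32% in CuAAC. The median log2 fold change of the 17 was 2.30 in SPAAC and 2.16 in CuAAC. Among the other plastid coding genes 51 of 55 were higher in each, with medians of 2.14 and 2.18, while the medians of all genes were -0.01 and 0.01.

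Of the polymerase genes, rpoC1 rose from 3.11, 2.48 and 3.02 CPM to 13.8, 14 and 9.56 CPM in SPAAC and from 5.74, 7.11 and 6.09 CPM to 21.8, 31.1 and 20.1 CPM in CuAAC. The groups did not overlap in either chemistry. Its log2 fold change was 2.11 ± 0.19 in SPAAC (adjusted p of 3.13e-08 by edgeR) and 1.93 ± 0.18 in CuAAC (adjusted p of 9.68e-08).

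rpoA reached 24.5, 13.7 and 7.92 CPM in m7G-depleted SPAAC and 22.3, 28.6 and 17.1 CPM in m7G-depleted CuAAC, above every mock library. rpoB reached 14.1, 14 and 6.68 CPM and 14.4, 19.3 and 11.8 CPM. rpoC2 reached 12.0, 14.6 and 8.71 CPM and 12.0, 21.3 and 11.3 CPM. In each gene replicate 3 was the lowest of the SPAAC libraries. The log2 fold changes of these 3 genes lay between 1.85 and 2.44 over both chemistries, with adjusted p of 0.000608 or lower by edgeR.

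matK rose to 38.1, 25.6 and 20.7 CPM in SPAAC and to 44.1, 63.2 and 42.7 CPM in CuAAC. The log2 fold changes were 2.54 ± 0.25 (adjusted p of 1.82e-06 by edgeR) and 2.16 ± 0.24 (adjusted p of 8.30e-06).

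Among the ribosomal protein genes the changes in SPAAC ran from rps14 to rpl32. rps14 rose to 145, 132 and 93.3 CPM in SPAAC and to 184, 229.6 and 152 CPM in CuAAC, with log2 fold changes of 1.57 ± 0.17 and 1.90 ± 0.17. It was the smallest change of the 17 in SPAAC, although the gene was the most abundant in the mock capture. rpl32 rose to 141, 50.4 and 29.7 CPM in SPAAC and to 118, 115 and 76.6 CPM in CuAAC, with log2 fold changes of 2.92 ± 0.50 and 2.43 ± 0.49. Replicate 1 of m7G-depleted SPAAC was well above the other libraries of its group for rpl32, while in TMM-scaled CPM all 3 stayed above mock SPAAC.

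rps18 rose to 34.6, 20.3 and 12.1 CPM in SPAAC and to 26.7, 33.7 and 20.7 CPM in CuAAC. rpl33 rose to 52.6, 24.2 and 12.2 CPM in SPAAC and to 34.9, 41.6 and 27.3 CPM in CuAAC. As in rpl32, replicate 1 was highest and replicate 3 lowest in SPAAC, and no depleted library overlapped the mock ones. The log2 fold change of rps18 was 2.82 ± 0.35 in SPAAC and 2.17 ± 0.35 in CuAAC, and that of rpl33 was 2.87 ± 0.46 and 2.09 ± 0.46.

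rps4 rose by 2.25 ± 0.22 and 2.1 ± 0.22, rps3 by 2.36 ± 0.29 and 1.88 ± 0.29, rps19 by 1.80 ± 0.28 and 1.98 ± 0.39, and the 5′ exon of rps12 by 2.34 ± 0.32 and 2.28 ± 0.35 on the log2 scale. rpl2.1, the rpl2 copy with more counts, had low counts: it had 9, 7 and 10 counts in mock SPAAC and 47, 42 and 28 in m7G-depleted SPAAC, against 8, 2 and 1 in mock CuAAC and 6, 3 and 3 in m7G-depleted CuAAC. It was called higher on depletion in SPAAC (log2 fold change 2.45 ± 0.37) and not in CuAAC (1.12 ± 0.65, adjusted p of 0.168 by edgeR). Without replicate 1 of mock CuAAC, which held 8 counts, the CuAAC value was 2.28 and was called.

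For no tested identifier did the test find a difference in the change on depletion between the chemistries. It gave 0 calls of 26 by edgeR and 0 by DESeq2, with 0 at an unadjusted p under 0.05 in each, where 0.00466% of all genes were called lower and 0% higher. The difference was 0.78 ± 0.64 for rpl33, 0.64 ± 0.50 for rps18, 0.18 ± 0.26 for rpoC1 and -0.33 ± 0.23 for rps14, so differences of this size could not be told from the spread. Relative to other plastid coding genes, the identifier with the smallest adjusted p on depletion in SPAAC was rpl32 (0.82 ± 0.23, adjusted p of 0.000401 by edgeR, under the fold). Per 100000 counts on those genes, rpl32 had 2171, 883 and 734 in m7G-depleted SPAAC and 867, 613 and 673 in mock SPAAC. These groups overlapped, and replicate 1 of m7G-depleted SPAAC stood far above the other libraries. In CuAAC the identifier with the smallest adjusted p was rps14 (-0.42 ± 0.22, adjusted p of 0.0578 by edgeR). With the plastid scaling, the medians over the 26 tested identifiers were 0.22 in SPAAC and -0.14 in CuAAC, beside 0.13 and -0.13 for the other plastid coding genes.

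**Figure D5:**
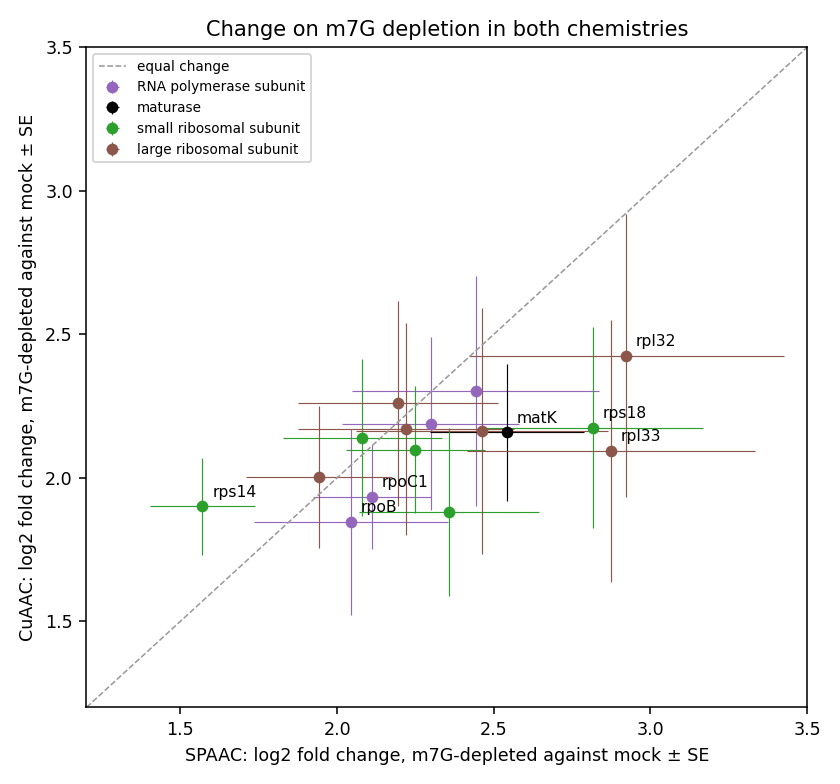
Log2 fold change ± SE (edgeR) on m7G depletion in SPAAC on the x axis and in CuAAC on the y axis for 16 of the 17 genes, coloured by role, with a dashed line of equal change. On this TMM scale all genes rise on both axes (relative to other plastid coding genes, 2 of the 17 are below 0 in SPAAC and 14 in CuAAC), with rps14 lowest in SPAAC at 1.57 and rpl32 highest at 2.92. With the plastid scaling, the medians of the other plastid coding genes are 0.13 in SPAAC and -0.13 in CuAAC.

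After depletion the messages were still lower than in mock mRNA-seq. All 17 genes were called lower in m7G-depleted SPAAC, where 13.8% of all genes were, with a median log2 fold change of -3.38. In m7G-depleted CuAAC 16 of the 17 were, where 12.6% of all genes were, with a median of -2.90. The exception was rps18 at -0.91 ± 0.32, which passed the adjusted p (0.0369 by edgeR) and missed the fold. In m7G-depleted SPAAC rps18 was at -1.18 ± 0.31 (adjusted p of 0.00668) and rpl33 at -1.68 ± 0.41. Leaving out single libraries moved these calls: rps18 was -1.10 and called in CuAAC without its replicate 2, -0.88 and not called in SPAAC without its replicate 3, and rpl33 was -1.31 and not called in CuAAC without its replicate 3. Scaled to library totals, rps18 was -0.43 and rpl33 -0.93 in SPAAC and rpl33 -0.84 in CuAAC, none called, and with only the compared groups in the fit the SPAAC values were -1.27 and -1.76 and not called. Relative to other plastid coding genes both genes turned higher, rps18 by 2.98 in SPAAC and 1.82 in CuAAC, and rpl33 by 2.45 and 1.28. On that scale 10 of the 26 tested identifiers were called higher in SPAAC, beside 20% of the other plastid coding genes, and 2 higher and 1 lower in CuAAC, beside 0% and 5.45%. The 1 called lower was rpl2.1, at -1.80. In SPAAC the median on that scale was 0.82 over the 26 tested identifiers and 0.45 over the other plastid coding genes themselves. These comparisons set m7G-depleted captures against mock-treated mRNA-seq, so the antibody step differs as well as the capture, and the effects of these cannot be told apart.

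Between the depleted captures 1 of the 26 tested identifiers was called higher in SPAAC and 1 lower, beside 7.3% and 0.895% of all genes. They were the copies of rpl2: rpl2.1 had 47, 42 and 28 counts in SPAAC and 6, 3 and 3 in CuAAC, and rpl2.2 had 3, 0 and 0 in SPAAC and 2, 2 and 6 in CuAAC. The sequences of these copies are identical, so their difference in counts within a library is not a difference between genes that the reads can resolve. The lower count was 2 with a replicate block in the fit. It was 7 without replicate 1 of m7G-depleted SPAAC, 0 without its replicate 3, 3 without replicate 1 of m7G-depleted CuAAC and 2 without its replicate 3. rpoC1 (-0.96 ± 0.17), matK (-0.82 ± 0.22), rps4 (-0.75 ± 0.19), rps14 (-0.61 ± 0.16) and rpl22 (-0.55 ± 0.21) passed the adjusted p and missed the fold. Relative to other plastid coding genes the direction was the opposite: 16 of 26 were called higher in SPAAC, beside 30.9% of the other plastid coding genes, with medians of 1.05 and 0.74.

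The nuclear genes for the partners of these products were measured in the same libraries as well. Of 31 nuclear genes for plastid ribosomal proteins, 6 were lower in mock SPAAC than in mock mRNA-seq and 2 in mock CuAAC, beside 5.17% and 11.2% of all genes, and their medians were -0.27 and 0.17. AT2G43030 went from 365 ± 6.86 CPM in mock mRNA-seq to 96.4 ± 5.97 CPM in mock SPAAC, a log2 fold change of -1.92 ± 0.09. On m7G depletion 7 fell in SPAAC and 4 in CuAAC, where 9.66% and 8.24% of all genes were called lower, and the medians of the list were -0.62 and -0.49. RPL12-A, of the large-subunit stalk, fell by 1.68 and 1.72.

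The 8 genes for sigma factors and nuclear-encoded plastid RNA polymerases spanned log2 fold changes of -0.45 to 0.69 in mock SPAAC and -0.80 to 0.27 in mock CuAAC against mock mRNA-seq. On depletion they spanned -0.82 to 1.11 in SPAAC, with 1 called higher beside 7.37% of all genes, and -0.39 to 0.86 in CuAAC. Of 12 genes for proteins associated with the plastid polymerase, 3 were lower in mock CuAAC, beside 11.2% of all genes, with PTAC12 at -1.44 ± 0.23 and PTAC2 at -1.28 ± 0.16, while in mock SPAAC the list spanned -0.60 to 0.65. On depletion 1 fell in SPAAC, TRX z, by 1.00, beside 9.66% of all genes, and in CuAAC the list spanned -0.78 to 0.90.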

How the data were processed

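The deposited files hold raw counts per gene for 15 libraries, with gene lengths, per the file headers. Per the submitters' processing notes the tools included featureCounts 2.0.0, STAR 2.7.3a and DESeq2. The genome build, the strand setting and the treatment of reads with several matches are not given in the sources used here. Names of the plastid identifiers were checked by coding length against RefSeq TAIR10.1: 30 of 31 were equal, 24 of them a length of 1 plastid coding gene only, and matK differed. Coordinates and sequences are from that build, and levels per kb use the length in the files.

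Counts were tested with edgeR 4.0.16 in R 4.3.3 (TMM, filterByExpr with a minimum count of 10, robust quasi-likelihood F test) in 1 fit of all 15 libraries by group, with adjustment over 21456 genes. A call needs an adjusted p under 0.05 and a fold of at least 2. For shares, libraries were permuted exactly between groups (two-sided, SciPy 1.17.1). The code was tested on simulated data. Alternatives were library totals, RLE factors, scaling to other plastid coding genes, DESeq2 1.42.0, no filter, the compared groups alone, a replicate block and leaving out each library.

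The replicate numbers come from the titles. Deviations from the group means correlated over 0.1 in 30 of 30 same-number pairs (0.182 to 0.747, 10920 genes), so the numbers were taken to pair the libraries. The reported edgeR p-values still come from the fit without a replicate block, and the share tests are unpaired unless stated otherwise. Results with the block are given where it changes a call. The members and lists were chosen with earlier results of these data known. Values in every library are given for the polymerase genes, matK, the 2 most abundant genes per kb of each subunit, and the highest and lowest log2 fold change of each subunit in the captures against mRNA-seq and on depletion. Values by library of rps2, rps15, rps16, rpl16 and rpl20 are outside this rule and were added after they were seen. Nuclear genes were named by the largest changes at a mean of at least 10 CPM. Some genes are counted in the totals but not reported here by name.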

Additional observations from a re-analysis of the deposited data

How the results depend on the processing

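Scaling each library to its other plastid coding genes changed the calls most, by its construction: it removes the shift in the summed counts of those genes. In mock SPAAC against mock mRNA-seq 0 members were then called lower and 8 higher, and matK was 0.40, rps12A 0.42, rpoC2 0.55, rpoC1 0.31, rpoB 0.79, rps14 0.83, rps4 0.20, rpl33 1.66, rps18 2.21, rpoA 0.81, rps3 0.69, rps19 1.28, rpl2.1 1.2 and rpl20 1.35 in log2 fold change. In mock CuAAC 0 were lower and 2 higher, with matK 0.44, rpoC1 0.28, rpoB 0.19, rpl33 1.48, rps18 1.95, rpoA 0.29, rps3 0.43 and rpl20 0.74. In mock SPAAC against mock CuAAC 0 were lower and 4 higher, with rpoC1 at 0.024. On depletion 0 were called higher in SPAAC, with rps14 -0.42 and rps19 -0.20, and 0 in CuAAC, with matK -0.15, rpoC2 -0.10, rpoC1 -0.38, rpoB -0.46, rps14 -0.42, rps4 -0.20, rpl33 -0.21, rps18 -0.13, rps3 -0.41, rps19 -0.26 and rpl2.1 -1.10. Between the depleted captures 0 were lower and 16 higher. Against mRNA-seq m7G-depleted SPAAC had 0 lower and 10 higher (rpl33 2.45, rps18 2.98), and m7G-depleted CuAAC 1 lower and 2 higher (rpl33 1.28, rps18 1.82).

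Between the depleted captures the members called lower were 2 with the replicate block, 0 with the compared groups alone and 3 with DESeq2, and 0 to 7 on leaving out 1 library. The cause was not tested. The replicate block changed no other count of calls by over 1.5 times. For the shares, permutation within same-number pairs, added after seeing the data, gave p of 0.25 at the lowest, the smallest that 3 pairs allow. Leaving out 1 library, the members called higher in mock SPAAC against mock CuAAC ran from 0 to 1. The share of plastid coding counts in m7G-depleted against mock SPAAC ran from -0.229 to 1.05 points. The polymerase share ran from -0.600 to 0.506 in m7G-depleted against mock CuAAC, -1.10 to 0.698 between the depleted captures and -0.583 to 1.22 in m7G-depleted SPAAC against mRNA-seq. Library totals moved the median of all genes by 0.73, 0.61, 0.76 and 0.63 in the comparisons with mRNA-seq. Low captured counts limit the genes under the low-count limit most.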
